A study of Mus musculus with 13 samples.

Results

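Thymic eosinophils of Rag-KO mice were compared between an injection of antibody to CD3 (Rag-KO + anti-CD3) and an injection of hamster IgG as control (Rag-KO + control). Rag-KO stands for mice that lack Rag1 or Rag2, so both groups carry such a deletion. The libraries were chosen by their labels, and 4 of the 13 libraries of the series belong to the comparison. Rag-KO + control replicate 1 came from a Rag2-/- mouse line and Rag-KO + control replicate 2 from Rag1-/-, while Rag-KO + anti-CD3 replicates 1 and 2 were both Rag2-/-. Mice were about 8 weeks old at a single intraperitoneal injection, and eosinophils were collected on day 10. The other 9 libraries came from eosinophils of WT C57BL/6N thymus, spleen and lung, and those of WT thymus are given here as a reference for level. Of 41743 genes in the table, 39426 were autosomal, and 9451 of these had enough signal to be tested. The sources used here do not say whether the libraries of a group came from separate mice, so p-values measure the spread between these libraries, which may be technical.

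Rag1 and Rag2 cut the antigen receptor genes, and without either of them thymocytes stop before they carry CD4 or CD8. An antibody to CD3 delivers to these arrested cells the signal that the pre-T cell receptor would give, and they divide and become CD4+ CD8+ thymocytes without rearranging a receptor. Eosinophils are granulocytes that depend on interleukin-5, and they enter the thymus from the blood. The comparison asks how the transcripts of thymic eosinophils differ between a thymus without and with CD4+ CD8+ thymocytes.

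RPKM is the number of reads of a gene scaled to the length of its transcript and to the mapped reads of the library. Library totals recovered from these values lay between 5259827 and 6315086 reads in the 4 Rag-KO libraries and between 4765122 and 6431540 over the series. A gene was called when limma, fitted to log2(RPKM + 1) of all 13 libraries, gave an adjusted p under 0.05 and a fold change over 2. The 2 control libraries differed from each other by over 2-fold in 1276 of the 9451 genes (13.5%), against 130 (1.38%) between the 2 anti-CD3 libraries. Replicate 2 of the controls is the only Rag1-/- library, so genotype and library cannot be told apart in it. WT spleen replicate 3, which shares in the estimate of the spread, held 22.03% of its RPKM in mitochondrial genes, against 1.60 to 6.02% in the others. With 2 libraries against 2, an exact two-sided permutation test of a single gene cannot go below p = 0.3333, so each test here rests on the spread shared over the series.

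The genotype labels were set against the reads. Rag1 was at 0.153 and 0.024 RPKM in the control libraries and at 1.38 and 1.62 in the anti-CD3 libraries. Rag2 was at 0.0492 and 0.0925 RPKM in the controls and at 0.222 and 0.0511 after anti-CD3. WT thymus held 0.776 to 3.29 RPKM of Rag1 and 0.288 to 0.860 of Rag2. Sorted eosinophils are not a cell that uses either gene, so neither level checks a deletion directly. Slc28a2b and Tmem87a lie on chromosome 2, as both Rag1 and Rag2 do, so that position does not tell the 2 deletions apart. In the 3 Rag2-/- libraries Slc28a2b was at 8.06, 6.25 and 10.9 RPKM and Tmem87a at 18.0, 10.2 and 23.3. The Rag1-/- library held 0.0847 and 1.04 RPKM of them, so the 2 control libraries differed in both genes. As only 1 library is Rag1-/-, its genotype cannot be told apart from the library itself.

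Y-linked genes also separated the libraries. Ddx3y, a Y-linked RNA helicase, was at 2.95 and 0 RPKM in the controls and at 15.9 and 15.6 after anti-CD3, and Eif2s3y, a Y-linked translation factor, was at 4.03 and 0 against 23.6 and 19.2. Both genes were listed at 0 in the 3 WT thymus libraries. Xist was listed at 0 in all 13 libraries, so it gives no second reading. Control replicate 1 held 18.7% of the anti-CD3 mean of Ddx3y and 18.9% of that of Eif2s3y, and 17.1% of that of Uty. Eif2s3y, Ddx3y and Uty were the 3 non-autosomal genes called higher. Antibody and Y-linked content of the libraries cannot be told apart in this design.

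The sorted cells carried the defining transcripts of eosinophils in all 4 libraries. Ccr3, the eotaxin receptor, was at 608 and 625 RPKM in the controls and at 710 and 634 after anti-CD3. Siglecf, the lectin used in the sort, was at 381 and 415 RPKM in the controls and at 455 and 373 after anti-CD3. Il5ra, the receptor chain for interleukin-5, was at 100.1 and 37.4 RPKM in the controls and at 90.6 and 83.8 after anti-CD3, and Il5 itself was listed at 0 in all 4. Of 16 identity genes 14 were tested, with a median log2 fold change of -0.00485, against -0.03 over all autosomal genes tested. None of the 14 was called by limma or by voom on the recovered reads, and 4 were lower at an unadjusted p under 0.05 (Ear1, Ear2, Prg3 and Epx, all granule proteins, described further on).

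Among the 9451 autosomal genes, 2 were called higher after anti-CD3 (0.0212%) and 8 were called lower (0.0846%). Cd8b1, the β chain of the CD8 co-receptor of thymocytes, and Olfm4, a secreted olfactomedin of granulocytes and epithelia, were the higher ones. The lower ones were Tppp3, Ecm1, S1pr1, Slc6a4, Adra2a, Adgrg5, Fam3b and Vmn2r26, which mostly encode surface receptors, transporters and secreted proteins. Slc6a4, Adra2a, Adgrg5, Fam3b, Vmn2r26 and Olfm4 were below the mean of 10 RPKM used to choose named genes and were added after their values were seen. At an unadjusted p under 0.05 and a fold over 2, 131 genes were higher (1.39%) and 216 lower (2.29%). Libraries of the groups did not overlap in 1805 genes in the higher direction (19.1%) and in 2111 in the lower (22.3%). The call depended on single libraries. The count of higher and lower genes was 20 and 67 without control replicate 1 and 27 and 27 without WT spleen replicate 3. It was 0 and 0 without control replicate 2, when either anti-CD3 library or WT thymus replicate 2 was left out, and likewise for each of the 3 WT lung libraries. The count became 1 and 0 without WT thymus replicate 1, 1 and 6 without WT thymus replicate 3, 0 and 1 without WT spleen replicate 1, and 0 and 5 without WT spleen replicate 2. Voom on the recovered reads called 0 genes in either direction, as did the 4 Rag-KO libraries fitted alone.

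**Figure D1:**
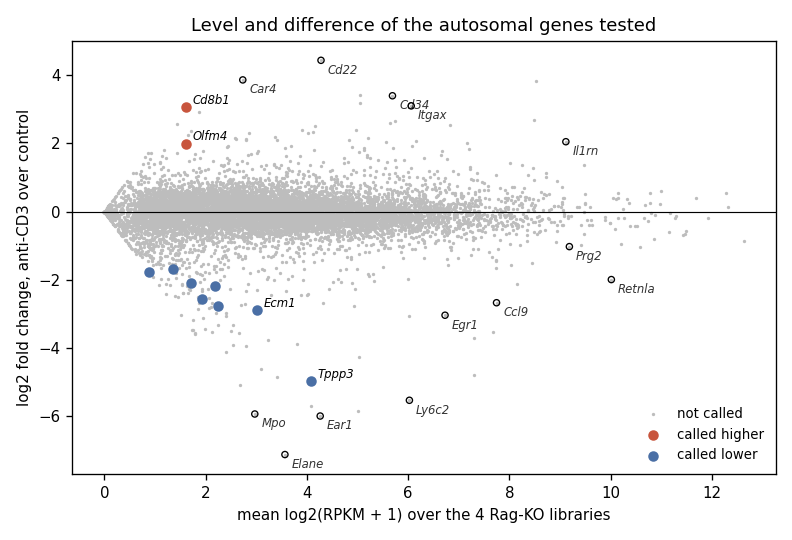
Each point is 1 of the 9451 autosomal genes tested, with its mean log2(RPKM + 1) over the 4 Rag-KO libraries on the horizontal axis and its log2 fold change for anti-CD3 over control on the vertical axis. Filled circles are the 2 genes called higher and the 8 called lower, 4 of them with names, and open circles are genes named in the text that did not pass the test, among them Elane at -7.13 and Cd22 at 4.44.

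Tppp3, a tubulin-binding protein, had the largest difference among the called genes. It was at 108 and 81.1 RPKM in the controls, at 4.12 and 0.758 after anti-CD3, and at 0.0996 to 0.505 in WT thymus. Both anti-CD3 libraries lay far below both controls (log2 fold change -4.98, standard error 0.73, adjusted p = 0.0294 from limma). Tppp3 (ENSMUSG00000014846) lies on chromosome 8 from 105467493 to 105471526 in mm10. Ecm1, a secreted matrix glycoprotein, was at 25.6 and 17.1 RPKM in the controls and at 3.21 and 1.07 after anti-CD3 (log2 fold change -2.89, standard error 0.42, adjusted p = 0.0294 from limma). S1pr1, the receptor by which leukocytes follow sphingosine 1-phosphate out of tissues, was at 9.12 and 14.2 RPKM in the controls and at 1.44 and 0.345 after anti-CD3 (log2 fold change -2.78, standard error 0.39, adjusted p = 0.0294 from limma). WT thymus held less than either control of both genes, with at most 0.942 RPKM of Ecm1 and 0.459 of S1pr1. Ecm1 (ENSMUSG00000028108) lies on chromosome 3 from 95734147 to 95739569 and S1pr1 (ENSMUSG00000045092) on the same chromosome from 115710433 to 115715072. Klf2, a transcription factor known to activate S1pr1 in T cells, was at 399 and 356 RPKM in the controls and at 168 and 85.3 after anti-CD3, with an adjusted p of 1 from limma.

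The other lower genes held a few RPKM in the controls and little after anti-CD3. Slc6a4, the serotonin transporter, was at 6.25 and 10.7 RPKM in the controls and at 0.466 and 0.674 after anti-CD3 (log2 fold change -2.56, adjusted p = 0.0325 from limma). Adra2a, an adrenergic receptor, was at 7.04 and 10.5 RPKM against 1.69 and 0.688 (log2 fold change -2.17, adjusted p = 0.0294). Adgrg5, an adhesion G protein-coupled receptor found on eosinophils, was at 7.34 and 4.48 RPKM against 0.713 and 0.477 (log2 fold change -2.09, adjusted p = 0.0324). The 3 genes encode proteins of the cell membrane, and WT thymus held at most 0.901 RPKM of any of them. Fam3b, a secreted cytokine-like protein, was at 2.92 and 2.03 RPKM in the controls and listed at 0 in both anti-CD3 libraries. Vmn2r26, a vomeronasal receptor gene, was at 3.38 and 3.83 RPKM against 0.542 and 0.347 (log2 fold change -1.67, adjusted p = 0.0478).

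Each of the 8 lower genes was lower over each control library taken alone, from -1.60 for Fam3b over control replicate 2 to -5.19 for Tppp3 over control replicate 1, on the log2 scale. Of the 13 refits without 1 library, S1pr1 and Adra2a kept the call in 4, Tppp3, Ecm1 and Fam3b in 3, and Slc6a4, Adgrg5 and Vmn2r26 in 2, and in 2 of the refits Slc6a4, Adgrg5 and Fam3b no longer had enough signal to be tested. The call of Tppp3 held without WT spleen replicate 2 or 3 or control replicate 1 and was lost without any other library. The adjusted p of Tppp3 over these refits ran from 0.00376 to 0.289, and its log2 fold change from -5.75 to -4.21.

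Olfm4 was the more abundant of the 2 higher genes in WT thymus, at 9.33 to 10.9 RPKM. It was at 0.174 and 0.983 RPKM in the controls and at 6.23 and 4.10 after anti-CD3 (log2 fold change 1.99, standard error 0.33, adjusted p = 0.0478 from limma). WT spleen and lung held at most 1.52 RPKM of it. Olfm4 (ENSMUSG00000022026) lies on chromosome 14 from 79984081 to 80023139, and its call held in 1 of the 13 refits, that without WT spleen replicate 3, with an adjusted p of up to 0.773 in the others.

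**Figure D2:**
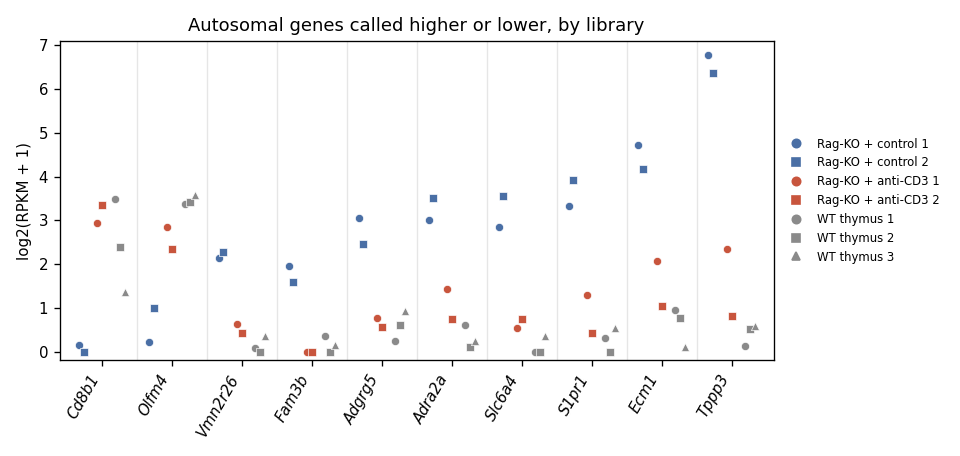
The 10 called autosomal genes are shown by library, with log2(RPKM + 1) on the vertical axis, controls in blue, anti-CD3 in red and WT thymus in grey, and 1 marker per library. The 8 lower genes have both anti-CD3 libraries below both controls, and the 2 higher genes the reverse, with WT thymus on the side of anti-CD3 for each gene.

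Transcripts of thymocytes were found in the sorted eosinophils at low level, and more after anti-CD3. Cd8b1 was at 0.113 and 0 RPKM in the controls, at 6.67 and 9.21 after anti-CD3 and at 1.57 to 10.3 in WT thymus (log2 fold change 3.07, standard error 0.50, adjusted p = 0.0478 from limma). Cd8b1 (ENSMUSG00000053044) lies on chromosome 6 from 71322788 to 71337494. Its call held in 3 of the 13 refits without 1 library, those without WT thymus replicate 1 or 3 or WT spleen replicate 3, and its adjusted p reached 0.622. Tcf7, a transcription factor of early T cells, was at 0.948 and 0.0525 RPKM in the controls and at 6.36 and 5.39 after anti-CD3 (log2 fold change 2.26, adjusted p = 0.255 from limma). Lck, the kinase next to CD4 and CD8, was at 0.726 and 0.273 RPKM in the controls and at 4.595 and 3.25 after anti-CD3 (adjusted p = 0.246). These levels of both genes lay within the range of WT thymus, 1.75 to 11.9 RPKM for Tcf7 and 2.01 to 7.15 for Lck. Cd8a was at 0.108 and 0 RPKM against 1.88 and 1.68, and Cd4 at 0.217 and 0.204 against 1.90 and 1.18 (adjusted p = 0.453 and 0.576).

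Summed over the 20 markers of thymocytes and T cells, the controls held 6.89 and 3.23 RPKM, the anti-CD3 libraries 37.0 and 33.5, and WT thymus 13.3 to 66.2. Only 11 of the 20 passed the filter, which a gene seen in the anti-CD3 and WT thymus libraries alone also passes, so these counts describe the genes and do not test the group. Of the 11, Cd8b1 was called and 7 were higher at an unadjusted p under 0.05. In the higher direction 10 had groups that did not overlap, next to 19.1% of all genes tested. Their median log2 fold change was 1.14, at 1.05 over control replicate 1 and 1.30 over control replicate 2. Dntt, the polymerase that adds bases at receptor junctions, was at 1.58 and 0.446 RPKM in the controls and at 4.11 and 2.30 after anti-CD3. Themis, a protein of T cell selection, was at 0.0255 and 0.024 RPKM against 1.35 and 0.503. Of 15 markers of CD4+ CD8+ thymocytes 10 were tested, of which 8 did not overlap and were higher, at a median of 1.07, next to 19.1% of all genes tested. Their sum was 143 and 47.2 RPKM in the controls and 124 and 128 after anti-CD3, so these groups overlapped. Ets2, a transcription factor that many cells use, made up most of that sum, and without it the sum was 20.9 and 10.6 RPKM against 46.5 and 44.4.

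The part of thymocyte RNA in the other differences was not tested. In bulk libraries, fewer cells of a type and less RNA per cell cannot be told apart. The remaining marker lists were read for other cells. B cell markers summed to 23.4 and 6.07 RPKM in the controls and 122 and 77.7 after anti-CD3, and Cd22 gave 15.8 and 0.0315 RPKM of it in the controls and 116 and 68.6 after anti-CD3. Without Cd22 the groups overlapped, at 7.57 and 6.04 RPKM against 5.09 and 9.06, and the defining marker Ms4a1 was listed at 0 in all 4 libraries. Hemoglobin and other erythroid markers summed to 234 and 6.73 RPKM in the controls and 492 and 122 after anti-CD3, so these groups overlapped. Epithelial markers of the thymus summed to 7.18 and 4.38 RPKM against 6.93 and 5.22. NK and innate lymphoid markers were highest in control replicate 2, with 46.9 RPKM against 8.71 in control replicate 1 and 5.19 and 1.497 after anti-CD3, of which Nkg7, a granule protein of killer cells, gave 43.5 RPKM in control replicate 2. Without Nkg7 the sums were 4.70 and 3.38 RPKM in the controls and 4.54 and 1.497 after anti-CD3.

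**Figure D3:**
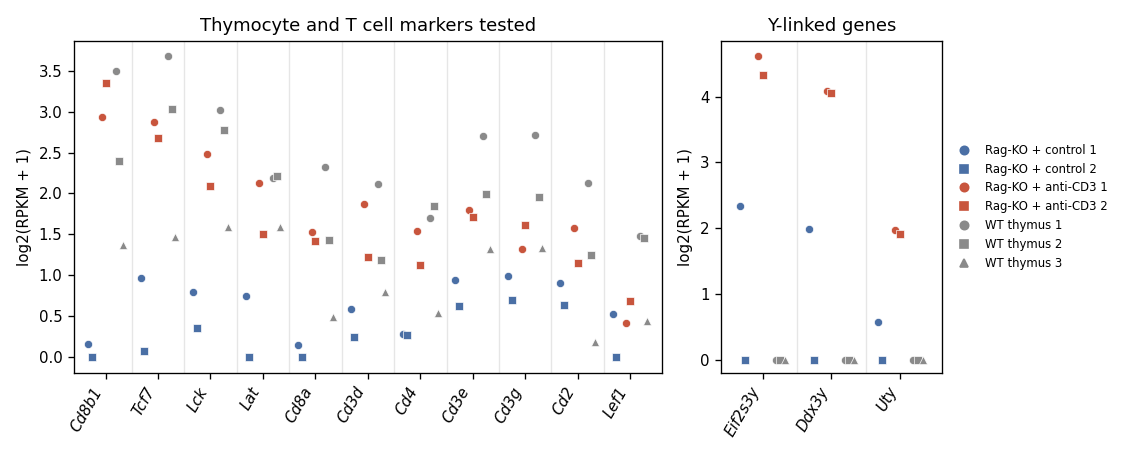
Thymocyte and T cell markers are on the left and Y-linked genes on the right, by library, as log2(RPKM + 1), with controls in blue, anti-CD3 in red and WT thymus in grey. The 11 markers are those of the thymocyte and T cell list that were tested. In 10 of them both anti-CD3 libraries lie above both controls, in Lef1 the groups overlap, and the 3 Y-linked genes are at 0 in control replicate 2 and WT thymus.

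The study named 8 genes as typical of thymic eosinophils, from WT thymus, spleen and lung. Those WT libraries share in the estimate of the spread here, and the Rag-KO libraries were not used for that choice. By limma 0 of the 8 were called and by voom 0, while 4 (Cd34, Itgax, Il1rn and Cxcr4) were higher at an unadjusted p under 0.05. In the higher direction 5 did not overlap, next to 19.1% of all genes tested. Cd34, a sialomucin of progenitor cells, was at 29.9 and 7.16 RPKM in the controls, at 180 and 155 after anti-CD3 and at 188 to 250.03 in WT thymus. Both anti-CD3 libraries were above both controls by over 5-fold (log2 fold change 3.40, standard error 0.71, adjusted p = 0.121 from limma). Itgax, the integrin chain CD11c, was at 47.8 and 9.61 RPKM in the controls and at 196 and 194 after anti-CD3, next to 206 to 259 in WT thymus (log2 fold change 3.10, standard error 1.02, adjusted p = 0.478). Il1rn, the antagonist of the interleukin-1 receptor, was at 435 and 169 RPKM in the controls and at 1249 and 1016 after anti-CD3 (log2 fold change 2.05, standard error 0.65, adjusted p = 0.440). WT thymus held 996 to 1658 RPKM of Il1rn. Cxcr4, the receptor for CXCL12, was at 174 and 27.9 RPKM in the controls and at 245 and 330 after anti-CD3 (log2 fold change 2.003, adjusted p = 0.440). Bcl2a1d, Hmgn2 and Fth1 lay closer together. Bcl2a1d was at 105.5 and 61.5 RPKM against 150.9 and 95.7, Hmgn2 at 257 and 472 against 248 and 276, and Fth1 at 1664 and 1391 against 1727 and 1753. Prg2, the remaining member, lay far apart in the control libraries. Its direction depends on the control library, as described further on. Reads of Bcl2a1d may be shared with its near-identical copies.

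For Cd34, Itgax, Il1rn, Cxcr4 and Fth1 control replicate 1 lay between control replicate 2 and the anti-CD3 libraries. For Bcl2a1d and Hmgn2 it lay between the 2 anti-CD3 libraries, and for Prg2 it lay below all the other Rag-KO libraries. Its level was 17.9% of the anti-CD3 mean for Cd34, 24.6% for Itgax, 38.4% for Il1rn and 60.7% for Cxcr4, next to the 17.1 to 18.9% of Ddx3y, Eif2s3y and Uty given above. Over the 11 thymocyte and T cell markers tested it ran from 1.43% for Cd8b1 to 93.5% for Lef1, with 16.1% for Tcf7, 18.5% for Lck and 26.1% for Lat. What these shares have in common was not tested. Control replicate 2 stood at 4.28, 4.94 and 14.9% for Cd34, Itgax and Il1rn. Over control replicate 1 alone the log2 difference of the anti-CD3 mean was 2.44 for Cd34, 2.002 for Itgax and 1.37 for Il1rn, and over control replicate 2 alone 4.36, 4.20 and 2.73.

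Both interleukin-1 cytokines had higher values after anti-CD3, without a call. Il1b was at 305 and 63.2 RPKM in the controls and at 1071.6 and 769.6 after anti-CD3, and Il1a at 46.7 and 8.34 against 205 and 87.1, with an adjusted p of 1 for both from limma. Il1rl1, the receptor for interleukin-33, went the other way, from 56.6 and 50.6 RPKM to 31.4 and 30.4 (log2 fold change -0.78, adjusted p = 0.511). Of 9 genes of the family tested, limma and voom called 0, 1 was higher at an unadjusted p under 0.05, and the median was -0.15.

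The largest positive differences among genes above 10 RPKM did not pass the adjustment. Cd22, an inhibitory lectin best known from B cells, was at 15.8 and 0.0315 RPKM in the controls and at 116 and 68.6 after anti-CD3 (log2 fold change 4.44, standard error 1.38, adjusted p = 0.437 from limma). WT thymus held 0.154 to 0.694 RPKM of Cd22, so for this gene the anti-CD3 libraries stood apart from WT thymus as well. Siglece, another inhibitory lectin of granulocytes, was at 52.7 and 40.2 RPKM in the controls and at 267 and 283 after anti-CD3 (log2 fold change 2.55, adjusted p = 0.0836). Adamdec1, a secreted protease, was at 354 and 25.7 RPKM against 1409.8 and 1359.9. Acp5, the tartrate-resistant acid phosphatase, was at 13.2 and 7.501 RPKM against 119 and 83.3. The lowest WT thymus levels of Siglece, Adamdec1 and Acp5 were 189, 932 and 92.1 RPKM, which both anti-CD3 libraries passed for Siglece and Adamdec1 and 1 of them for Acp5. Car4, a carbonic anhydrase of the cell surface, was at 0.877 and 0.619 RPKM against 61.4 and 9.34, so its anti-CD3 libraries differed more than 6-fold from each other. Lyz1 was at 0.533 and 0.125 RPKM against 3.16 and 23.3 and never passed 0.492 in WT thymus. Cd101, an inhibitory receptor, Pilra, a paired receptor, and P2ry13, a receptor for ADP, were each above both controls in both libraries, at log2 fold changes of 2.52, 2.61 and 2.30. Slco4a1, an organic anion transporter, came nearest to the threshold, at 8.34 and 5.49 RPKM against 49.0 and 29.5 after anti-CD3 (log2 fold change 2.33, standard error 0.40, adjusted p = 0.0552). Abi3, Qpct and Pglyrp2 complete the 15 genes, at 2.40, 2.30 and 2.20.

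Single members of the lists for iron, TGF-β signalling, integrins, thymocytes without CD4 or CD8, and chemokine receptors had higher levels after anti-CD3 without a call. These members were chosen after their values were seen. Slc40a1, the iron exporter ferroportin, was at 36.2 and 31.0 RPKM in the controls and at 156 and 109.9 after anti-CD3, with 96.0 to 113 in WT thymus (log2 fold change 1.94, standard error 0.34, adjusted p = 0.0625 from limma). The 2 control libraries were close to each other in this gene. Of 16 genes of iron and heme, limma and voom called 0 and 2 were higher at an unadjusted p under 0.05 (Slc40a1 and Tfrc, the transferrin receptor), at a median of -0.05. Tgfbr1, a receptor for TGF-β, was at 28.6 and 9.38 RPKM against 76.6 and 77.7 (log2 fold change 2.16, adjusted p = 0.121). Smad7, which TGF-β signalling induces and which blocks it, was at 3.65 and 1.63 RPKM against 7.16 and 7.12 (adjusted p = 0.326). These were the 2 of 12 genes of TGF-β signalling that were higher at an unadjusted p under 0.05, none was called by limma or voom, and the median was 0.40. Itgae, the integrin chain CD103 that TGF-β is known to induce in T cells, was at 0.438 and 0 RPKM against 4.45 and 2.28 (log2 fold change 1.82, adjusted p = 0.144). Itgb5 was at 2.23 and 1.49 RPKM against 12.4 and 10.8 (log2 fold change 2.15, adjusted p = 0.295). WT thymus held 5.86 to 15.5 RPKM of Itgae and 20.2 to 32.7 of Itgb5, above both anti-CD3 libraries for each gene. Itgam, Itgb2 and Itgb1, the most abundant integrin chains beside Itgb7, had log2 fold changes of 0.36, -0.12 and -0.13, and of 15 integrins limma and voom called 0, with 3 higher at an unadjusted p under 0.05. Of the 15 integrins, 6 did not overlap in the higher and 4 in the lower direction (Itgb7, Itga5, Itgb3 and Itgb2), at a median of -0.12. Over all genes tested these shares were 19.1% and 22.3%. Hes1, a target of Notch and a marker of early thymocytes, was at 22.9 and 13.5 RPKM against 61.4 and 67.8 (log2 fold change 1.82, adjusted p = 0.118), with 44.8 to 63.0 in WT thymus. Of 12 markers of thymocytes without CD4 or CD8, 6 were tested, and limma and voom called 0. At an unadjusted p under 0.05, 2 were higher, and the median was 0.83. Cxcr2, a receptor of granulocytes, was at 4.58 and 2.49 RPKM against 18.1 and 11.1 (log2 fold change 1.78, adjusted p = 0.202).

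Retnla, Ccl9 and Egr1 were lower after anti-CD3 by a like amount over both controls. Retnla, a resistin-like secreted protein, was at 2160.2 and 1965.5 RPKM in the controls and at 560.2 and 475 after anti-CD3 (log2 fold change -1.996, standard error 0.41, adjusted p = 0.121 from limma). WT thymus held 16.8 to 21.025 RPKM of it, so the anti-CD3 libraries stayed far above that level. Ccl9, a chemokine of myeloid cells, was at 485 and 604 RPKM in the controls and at 84.8 and 82.9 after anti-CD3, against 4.22 to 20.3 in WT thymus (log2 fold change -2.68, standard error 0.57, adjusted p = 0.135). Retnlg, a relative of Retnla, was at 2603 and 3199 RPKM against 4529.9 and 3159, with 290.2 to 579 in WT thymus. Egr1, an immediate early transcription factor, was at 331 and 278 RPKM in the controls and at 45.8 and 28.1 after anti-CD3 (log2 fold change -3.04, standard error 0.60, adjusted p = 0.101). WT thymus held 331 to 501 RPKM of Egr1, so here the anti-CD3 libraries were the ones apart. Other immediate early genes differed less. Fos was at 2914 and 4111 RPKM against 2193 and 2137, Dusp1 at 4269 and 3945 against 3438 and 3793, and Junb at 2156 and 1505 against 1821 and 1683. Of 19 immediate early genes tested limma and voom called 0, Egr1 alone was lower at an unadjusted p under 0.05, and the median was -0.18.

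**Figure D4:**
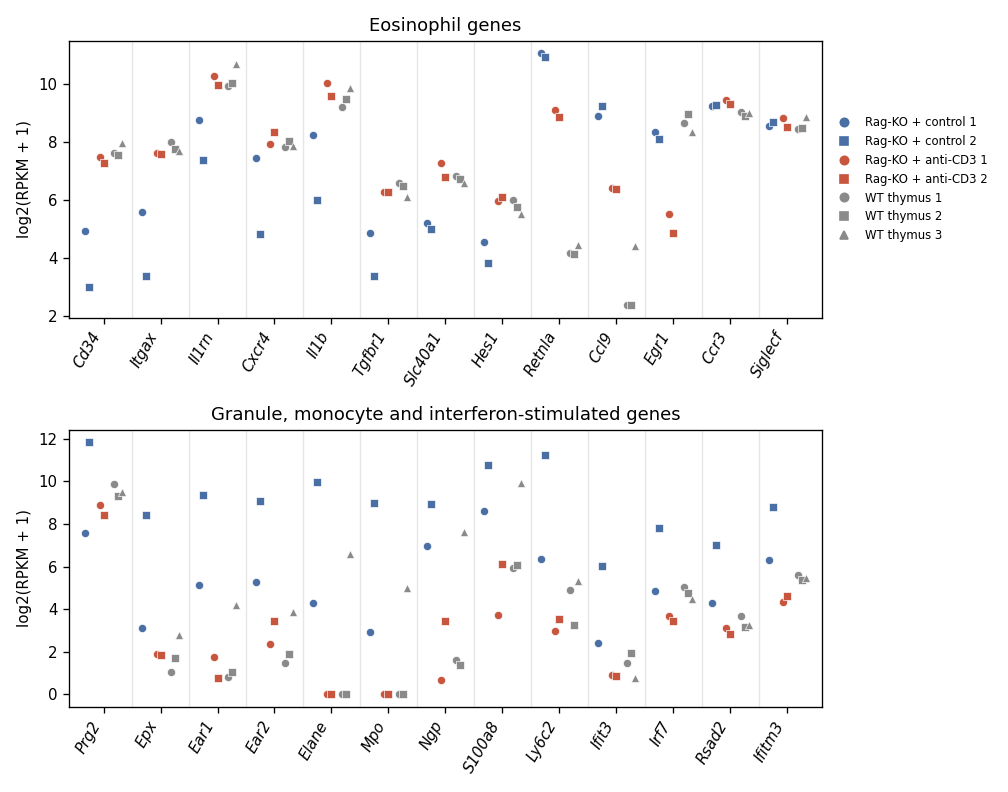
The vertical axes give log2(RPKM + 1) for each of the 7 thymus libraries, with controls in blue, anti-CD3 in red and WT thymus in grey. In the upper panel the controls lie together for Retnla, Ccl9, Egr1 and Slc40a1, and control replicate 1 lies between control replicate 2 and anti-CD3 for Cd34, Itgax and Il1rn, while in the lower panel control replicate 2 stands above every other library in each gene.

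Granule genes were highest in control replicate 2. Prg2, the major basic protein, was at 188 and 3648 RPKM in the controls and at 477 and 345 after anti-CD3, and Epx, eosinophil peroxidase, at 7.64 and 340.3 against 2.69 and 2.60. Over control replicate 1 alone the anti-CD3 mean of Prg2 was higher by 1.11 on the log2 scale, and over control replicate 2 alone it was lower, at -3.16. The direction of Prg2 thus depends on the control library. Ear1, an eosinophil ribonuclease, was at 34.6 and 662 RPKM in the controls and at 2.34 and 0.719 after anti-CD3 (log2 fold change -6.00, standard error 1.29, adjusted p = 0.138 from limma). Ear2 and Prg3 went the same way, at 37.5 and 532 against 4.23 and 9.74, and at 7.27 and 219 against 0.401 and 1.11. Reads of Ear1 and Ear2 may be shared with other members of this multigene family.

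Elane, Mpo and Ngp, granule genes of neutrophils and their precursors, were also highest in control replicate 2 among the Rag-KO libraries. Elane, neutrophil elastase, was at 18.6 and 1002 RPKM in the controls and Mpo, myeloperoxidase, at 6.53 and 501, and both were listed at 0 in the 2 anti-CD3 libraries. Ngp, a neutrophil granule protein, was at 122 and 486 RPKM against 0.622 and 10.0, and Ltf, lactoferrin, at 22.5 and 21.02 against 0.0679 and 1.12, so that for Ltf the controls were alike. Ltf, Ngp and Elane were high also in WT thymus replicate 3, at 20.3, 194 and 94.8 RPKM, and at most 2.11 in the other WT thymus libraries. The list used here joins neutrophil-type granule genes with resistin-like genes, among them Retnlg and Retnla. Of its 18 genes, 17 had groups that did not overlap in the lower direction, next to 22.3% of all genes tested. At an unadjusted p under 0.05, 8 were lower, while limma and voom called 0. The median was -3.55, at -2.54 over control replicate 1 and -3.94 over control replicate 2. Elane has an adjusted p of 0.881 and Ltf of 0.305. A separate list of 11 neutrophil markers summed to 3842 and 7376 RPKM in the controls and 4737 and 3478 after anti-CD3, so these groups overlapped. Without Retnlg, its most abundant member, the sums were 1239 and 4178 RPKM against 207 and 319. Of these 11 markers, 7 did not overlap in the lower direction and 1, Cxcr2, in the higher. Ly6c2, a surface marker of monocytes, was at 79.7 and 2440.2 RPKM in the controls and at 6.79 and 10.7 after anti-CD3 (log2 fold change -5.54, adjusted p = 0.305). Markers of macrophages and monocytes summed to 959 and 3122 RPKM against 793 and 698, and without Ly6c2 to 879.7 and 681 against 786.5 and 688, so that the groups overlapped. Of the 11 macrophage and monocyte markers tested, limma and voom called 0. In the lower direction 3 did not overlap (Ly6c2, Cd68 and Fcgr1) and in the higher direction 2 (Csf1r and Spic), next to 22.3% and 19.1% of all genes tested. C1qa was at 4.37 and 15.2 RPKM against 12.8 and 6.40. Adgre1, which is also on the list of eosinophil identity genes, was at 707 and 433 RPKM against 579 and 486. It made up most of the macrophage and monocyte sum without Ly6c2, so that sum does not separate these cells from eosinophils. The part of other myeloid cells in the controls was not tested.

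The interferon-stimulated genes carried the most uniform difference of the lists examined. All 28 tested of 30 were lower in both anti-CD3 libraries than in both controls, next to 22.3% of all genes tested. Of the 28, 17 were lower at an unadjusted p under 0.05, and limma and voom called 0. The median was -1.64, at -0.61 over control replicate 1 and -2.36 over control replicate 2. Irf7, the transcription factor that amplifies the interferon response, was at 27.7 and 220.4 RPKM in the controls and at 11.7 and 9.77 after anti-CD3 (log2 fold change -2.77, standard error 0.69, adjusted p = 0.241 from limma). Rsad2, the antiviral enzyme viperin, was at 18.7 and 130 RPKM in the controls and at 7.71 and 6.18 after anti-CD3 (log2 fold change -2.68, adjusted p = 0.212). Ifit3, an antiviral protein that binds RNA complexes, was at 4.24 and 65.2 RPKM against 0.872 and 0.803 (log2 fold change -3.34, adjusted p = 0.320). WT thymus held 21.1 to 32.3 RPKM of Irf7, 7.98 to 11.8 of Rsad2 and 0.713 to 2.82 of Ifit3, close to control replicate 1 in the first and below it in the other two. Ifitm3, a membrane protein that blocks viral entry, was at 77.9 and 444 RPKM against 19.3 and 23.5. Stat2 and Irf1, transcription factors of the interferon pathway, had log2 fold changes of -0.44 and -0.46.

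Promoters of these genes are shown because the members of the list differed in 1 direction and a shared element can be read in them. The motif searched was GAAANNGAAA and on the other strand TTTCNNTTTC, the core of the element bound by the factors that interferon activates, and a gene counted once if any of its annotated starts had a match on either strand. Of 24 members with a promoter in RefSeq (GRCm38.p6, 250 bases before to 50 after an annotated start), 16 held it (66.7%). Over all genes with a promoter there, 1079 of 27025 held it (3.99%). The list was made of genes known to respond to interferon, so a high share follows from that choice. It does not bear on the difference between anti-CD3 and control. Ifitm3, at a log2 fold change of -3.07, was among the 16 with a match and is not shown. The stretches below belong to 3 members with strongly negative log2 fold changes and a match before the start. These stretches are given in gene orientation, with the match nearest the start in capitals. They are chr19:34583377-34583446 (+) for Ifit3, chr19:34640774-34640843 (+) for Ifit1 and chr12:26456533-26456602 (-) for Rsad2.
Ifit3: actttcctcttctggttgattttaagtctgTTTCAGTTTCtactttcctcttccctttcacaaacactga
Ifit1: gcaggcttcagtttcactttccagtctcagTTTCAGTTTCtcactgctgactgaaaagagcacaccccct
Rsad2: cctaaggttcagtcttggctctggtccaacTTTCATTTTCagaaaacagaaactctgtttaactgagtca
The match begins 122, 85 and 120 bases before the annotated start of Ifit3, Ifit1 and Rsad2. A match is a description of the letters, and binding was not measured here. Ifit1 was at 5.07 and 45.1 RPKM in the controls and at 1.43 and 1.58 after anti-CD3.

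MHC class I genes, many of them induced by interferon, were lower in 10 of 14 genes without overlap, next to 22.3% of all genes tested. Their median was -0.65. H2-K1 was at 1281 and 2088 RPKM in the controls and at 885 and 808 after anti-CD3, and Nlrc5, the activator of MHC class I genes, at 2.62 and 2.66 against 0.769 and 0.536 (log2 fold change -1.14, adjusted p = 0.473 from limma). B2m was at 5183 and 4567 RPKM against 5189 and 5606. Limma and voom called 0 of the 14, and 2 were lower at an unadjusted p under 0.05. Chemokine genes were at a median of -1.34 over 13 tested, of which 8 were lower without overlap, again next to 22.3% of all genes. At an unadjusted p under 0.05, 4 were lower, and limma and voom called 0. Ccl6, the most abundant, was at 6909 and 10624 RPKM against 4605 and 4738, and Cxcl10, an interferon-induced chemokine, at 26.8 and 49.5 against 6.88 and 5.30. Ccl2 was at 1.04 and 82.2 RPKM against 0 and 0.431, so its difference came from control replicate 2. Ccl3, a chemokine for monocytes and T cells, went the other way, at 238 and 24.4 RPKM against 253 and 303.

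Cell cycle genes were further below control replicate 2 than below control replicate 1. Their median was -0.80 over 23 genes, at -0.08 over control replicate 1 and -1.47 over control replicate 2, and 3 were lower at an unadjusted p under 0.05 with 0 called by limma and voom. Rrm2, a subunit of ribonucleotide reductase, was at 2.62 and 18.5 RPKM in the controls and at 0.959 and 0.515 after anti-CD3, and Pcna, the sliding clamp of replication, at 25.7 and 47.5 against 20.2 and 23.9. Nuclear genes of oxidative phosphorylation had a median of -0.34, at -0.10 and -0.61 over control replicates 1 and 2.

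Genes of lipid mediators, the NADPH oxidase, degranulation and ribosomal proteins had medians near 0. Lipid mediator genes had a median of 0.14 over 11 tested, with 0 called by limma and voom and 0 past an unadjusted p under 0.05. Of the 11, 6 did not overlap in the higher direction and 1 in the lower, next to 19.1% and 22.3% of all genes tested. Lta4h, a hydrolase of leukotriene synthesis, was at 379 and 339 RPKM in the controls and at 729 and 626 after anti-CD3 (log2 fold change 0.91, adjusted p = 1 from limma), and Alox15, the lipoxygenase of eosinophils, was at 1997 and 1069 RPKM against 2255 and 1999. Genes of the NADPH oxidase were at 0.03 and those of degranulation and vesicle release at -0.12, and cytosolic ribosomal proteins at 0.15 over 29 genes. For all 3 lists limma and voom called 0 and no member passed an unadjusted p under 0.05. Il4, a type 2 cytokine that eosinophils make, was at 33.6 and 31.7 RPKM in the controls and at 25.3 and 24.8 after anti-CD3 (log2 fold change -0.37, adjusted p = 1 from limma), and Il13 was below the filter, at 0.978 and 0.526 RPKM against 0.158 and 0.436. The 11 cytokine genes tested had a median of -0.37, limma and voom called 0 of them and none passed an unadjusted p under 0.05. Among genes above 1000 RPKM, Junb, Sh3bgrl3, Zfp36, Taldo1 and Pfn1 had the smallest differences, from -0.12 for Pfn1 to 0.08 for Zfp36. MHC class II genes were at 0.52, and 4 of 7 did not overlap in the higher direction, next to 19.1% of all genes tested. Over the 48 lists examined only 1 listed gene was called, Cd8b1, which stands in both thymocyte lists.

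**Figure D5:**
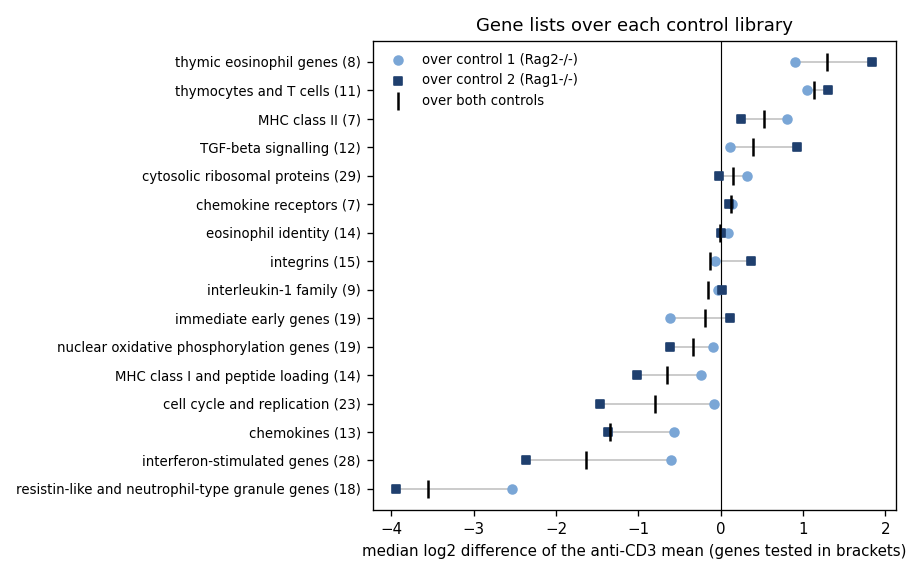
Each row is a gene list with the number of its genes tested, and the horizontal axis is the median log2 difference of the anti-CD3 mean over control replicate 1 (light circles), over control replicate 2 (dark squares) and in the comparison with both (black bars). The interferon-stimulated genes lie at -0.61 and -2.36 and the cell cycle genes at -0.08 and -1.47 over the 2 controls, whereas the thymocyte markers lie at 1.05 and 1.30.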

How the data were processed

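Eosinophils were enriched with beads, sorted as CD11b+ Siglec-F+ cells from enzyme-digested thymus, and sequenced on an Ion Proton instrument after amplification with a SMART-seq kit. Reads went through CLC Genomics Workbench, and the authors deposited 1 RPKM value per gene and library (41743 genes, 13 libraries). Settings of mapping and counting and the use of strand are not given in the sources used here, and mm10 is the build named by the submitters' processing notes. RPKM corrects for the library total and for no other difference between libraries. Chromosomes came from GENCODE M21 (mm10), which matched 41675 gene identifiers. Reads were recovered from RPKM with the annotated length in 5888 genes, and after a length was found from the values in 9715 more (tolerance 0.001), so those are known up to a factor. A value of 0 allows up to 3 reads per library. This covers counting error only, as reads without molecular identifiers are not independent molecules.

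Genes that reached 1 RPKM in 2 or more libraries (9763, of which 9451 autosomal) were fitted with limma 3.58.1 in R 4.3.3 on log2(RPKM + 1), with an intensity trend and 5 groups over 13 libraries, which leaves 8 residual degrees of freedom. Fold changes are on that scale and understate the change of low genes. Benjamini-Hochberg adjustment ran over all genes tested. The script was tested on simulated data. Named genes were those the study names for these libraries, up to 15 in each direction by size of change with a mean of at least 10 RPKM in the higher group, and up to 4 abundant members of each of 48 lists with every called one; other genes were picked after their values were seen. The comparison and the lists were chosen with earlier results of these data known. Alternatives were other pseudocounts, filters, scalings, sets of libraries, a replicate block and leaving out each library. Voom on the recovered reads, a batch term (replicate 3 of each WT organ and control replicate 2 together) and a fit of 10 libraries were added after the data were seen. A lone library left in a group was taken to vary as the other groups do. In promoters, 250 bases before and 50 after the start were searched.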

Additional observations from a re-analysis of the deposited data

How the results depend on the processing

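The 2 genes called higher and 8 called lower rest on a small number of libraries. Counts of higher and lower genes were 0 and 0 with a pseudocount of 0.1, with an RPKM of at least 5, with the 4 Rag-KO libraries alone and with voom. Higher genes numbered 11 with a pseudocount of 5, 6 with no filter, 8 with quantile normalization, 4 with upper-quartile scaling and 10 with the 7 thymus libraries, where lower genes stayed between 8 and 11. Unadjusted p-values gave 131 and 216, and a least-squares contrast on RPKM over the thymus groups 138 and 165. With the batch term, chosen after seeing the data, the counts were 11 and 15, and with 10 libraries 4 and 5. Leaving out 1 library at a time gave 0 to 27 higher and 0 to 67 lower genes. All 8 lower genes were shared with the counts of the batch term and of the least-squares contrast. With the 7 thymus libraries only S1pr1, Slc6a4 and Tppp3 of the 8 were among the lower genes. Neither Cd8b1 nor Olfm4 was called higher with those libraries, with a pseudocount of 5 or with no filter, and both were with the batch term. The cause was not tested.

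Replicate numbers did not pair the Rag-KO libraries: deviations from the group mean of same-numbered libraries correlated at -0.02 over genes. With the replicate number as a block the counts were 18 and 18, and both higher and all 8 lower genes were among them.

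Without control replicate 2, and with the 10 libraries, the log2 fold change turned to 1.11 for Prg2, 0.0276 for Hmgn2, -0.20 for Tmem87a and -0.28 for Zfp36, and without control replicate 1 it was -3.165, -0.849, 3.01 and 0.43. Of 100 named genes that were not called, 42 were called in at least 1 of up to 29 alternatives, among them Siglece and Slco4a1 in 9 each and Slc40a1 in 8. At 5259827 to 6315086 reads a library and 2 libraries a group, a gene that was not called may still differ. The smallest difference that could be detected at a given RPKM was not computed.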
